A study of Mus musculus with 11 samples.

Results

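The comparison of panobinostat with vehicle covers 5 tumours of the 11 in the series, 2 from mice given panobinostat and 3 from mice given vehicle. The animals were homozygous Th-MYCN mice, in which the tyrosine hydroxylase promoter drives a MYCN transgene in the sympathetic lineage and neuroblastomas arise spontaneously, so every group shares that transgene. Once a tumour reached about 5 mm, a mouse received 1 dose of panobinostat at 5 mg/kg or of vehicle, both into the peritoneum, and the tumour was taken 16 h later and flash frozen. The panobinostat libraries are those labelled replicates 1 and 3, and replicate 2 was not analysed here. As a second reference the text uses 3 tumours of the same genotype taken 16 h after CBL0137, a curaxin given intravenously at 40 mg/kg, and the 3 tumours that received both drugs enter only the pooled estimate of spread. Ribosomal RNA was depleted and total RNA of the whole tumour was sequenced, so tumour cells, stroma and blood cells are measured together. Genes with at least 1 TPM (a gene's length-corrected share of each library) in at least 2 of the 11 libraries were tested, which kept 15497 of 24411 genes. TPM hold no read counts, so the depth of the libraries is unknown. Values are listed in the order vehicle 1, 2 and 3, then panobinostat 1 and 3. A log2 change is the difference of group means of log2(TPM + 1), which understates the change of low genes, with its SE and an adjusted p from limma, and a gene "rose" or "fell" where that p was under 0.05.

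Histone deacetylases (HDACs) remove acetyl groups from lysines of histones and other proteins, and the class I enzymes work inside corepressor complexes such as SIN3, NuRD and CoREST. Panobinostat is a hydroxamate that blocks the zinc-dependent HDACs of classes I, II and IV, and compounds of this kind are known to raise the cell cycle inhibitor p21 and to stop proliferation in many cell types. Neuroblastoma cells resemble sympathetic neuroblasts, keep a noradrenergic transcription factor circuit, and with high MYCN make much of the machinery for ribosomes, nucleotides and polyamines.

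Tumours carried the labelled cell type in both groups. The summed level of 12 sympathoadrenal markers was 1545 to 1815 TPM in vehicle and 1285 to 1507 TPM after panobinostat, and 2 of the 12 fell (Stmn2 and Gata3). Of all tested genes 16.9% fell and 25.5% rose, so the share of these markers that fell (16.7%) was near that of all genes. Other tissues were present unevenly. The 19 skeletal muscle markers summed to 21.1 to 112 TPM in vehicle, 41.2 TPM in panobinostat 1 and 15070 TPM in panobinostat 3, and 18 of these 19 were over 2 log2 units higher in panobinostat 3 than in panobinostat 1, as were 277 of all tested genes. Kidney markers summed to 489 TPM in vehicle 2, where Kap reached 302 TPM, against 1.48 TPM in the lowest vehicle library. The fat cell list summed to 283 to 711 TPM in vehicle and 2172 to 4450 TPM after panobinostat, with 5 of 10 members higher (2 without vehicle 3 or panobinostat 1, 8 with array weights or in the fit of these 5 libraries alone), and the red cell list to 423 to 3388 against 5399 to 8687 TPM. Over all tested genes the median absolute difference between the 2 panobinostat libraries was 0.25 on the log2 scale. The part of these tissues in the results below was not tested. Both panobinostat libraries are given where TPM values are listed. Other genes have only a log2 change over both, which does not show a difference between the 2 libraries.

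**Figure D1:**
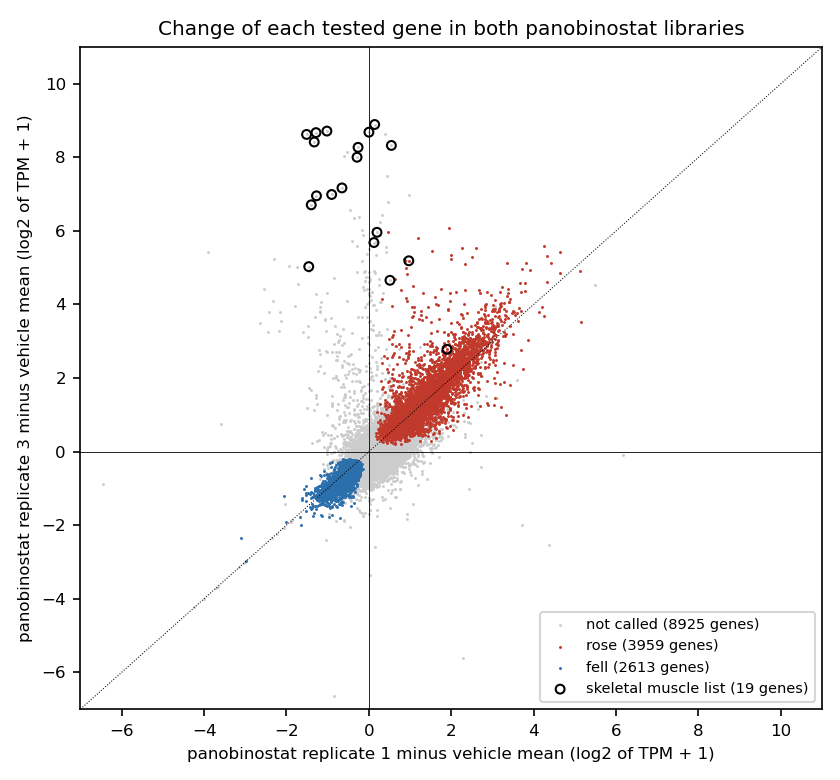
Each point is a tested gene, placed by its difference from the vehicle mean in panobinostat replicate 1 (x axis) and replicate 3 (y axis), both in log2 of TPM + 1. Genes that rose (3959, red) and fell (2613, blue) lie along the dotted line of equal change, and the 19 skeletal muscle markers (open circles) stand above it, except 1 that lies near it.

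After panobinostat 3959 genes rose (25.5% of those tested) and 2613 fell (16.9%), and the rises were the larger changes. Of the genes that rose, 2878 did so at least 2-fold on the log2(TPM + 1) scale, 1032 at least 4-fold and 171 at least 8-fold, and the median rise was 1.44. Of those that fell, 267 did so at least 2-fold and 2 at least 4-fold, and the median fall was -0.62. More genes were detected, with 12856 to 13517 at 1 TPM or more in vehicle and 14683 and 14747 after panobinostat, and 1063 of the genes that rose had a vehicle mean under 1 TPM. The 2 panobinostat libraries lay above the 3 vehicle libraries in 37.1% of all tested genes and below them in 27.8%. The median change over all tested genes was 0.10. The balance of directions depends on the scale: 60.2% of the calls were rises with TPM as deposited, and 38.2% after quantile normalization, which moved the median of all genes to -0.18, called 2451 rises and 3960 falls, and kept 2292 of the rises and 2190 of the falls. Without panobinostat 3 the calls numbered 2727 and 1304, and without vehicle 1, 2 or 3 the falls numbered 1956, 2239 and 1907. The labels name 1 library per tumour and do not say more of the replicates, so p-values measure the spread between these tumours.

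The 15 genes with the largest rises were mostly products of myeloid cells and stroma. S100a9, a calprotectin subunit of neutrophils and monocytes, went from 9.33, 3.4 and 0.63 TPM with vehicle to 104 and 181 TPM after panobinostat (5.04 ± 0.69, adjusted p = 0.000801). Its partner S100a8 went from 5.64, 1.34 and 0.98 to 58.2 and 151 TPM (4.92 ± 0.51, adjusted p = 0.000439). For both genes the lower treated library was over 10 times the highest vehicle library. The monocyte chemokine receptor Ccr2 (chromosome 9, 124101918 to 124109140 on mm10) went from 4.98, 2.31 and 2.29 to 79.8 and 98.02 TPM (4.47 ± 0.36, adjusted p = 0.000238). Chemokines made by macrophages stood among the same 15: Ccl12, Ccl9 and Ccl6 rose by 4.83, 4.78 and 4.18. Timp1 (chromosome X, 20870166 to 20874737), an inhibitor of matrix metalloproteases, rose from 14.1, 10.04 and 6.84 to 152 and 382 TPM (4.47 ± 0.45). F13a1, a transglutaminase of macrophages and platelets, and the platelet chemokine Pf4 rose by 4.43 and 4.33. The macrophage product Retnla rose from 1.84, 1.4 and 1.81 to 93.3 and 30.01 TPM, and the iron-scavenging protein gene Lcn2 from 12.3, 1.47 and 1.14 to 51.2 and 97.9 TPM. Ifi27l2a, an interferon-inducible gene, rose from 30.4, 33.4 and 19.4 to 514 and 425 TPM. Retnla and Ifi27l2a were higher in panobinostat 1, and the other named genes of this paragraph in panobinostat 3. The pseudogene Atp6v0c-ps2 was listed at 0 in all vehicle libraries and at 23.8 and 28.2 TPM after panobinostat, and its value is uncertain, since it can share reads with its parent gene. Atp6v0c-ps2 did not pass without vehicle 1, vehicle 2, vehicle 3, panobinostat 1 or panobinostat 3 (limma adjusted p = 0.0507 to 0.1), and Retnla without panobinostat 1 (limma adjusted p = 0.0562).

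The largest falls were smaller and tighter. Fut9 (chromosome 4, 25609333 to 25800003), which builds the Lewis x sugar of neural cells, fell from 24.6, 31.01 and 26.6 to 6.07 and 6.57 TPM, a log2 change of -1.95 ± 0.21 with an adjusted p of 0.000458. The phosphatase inhibitor gene Ppp1r17 fell from 62.8, 94.4 and 76.3 to 23.4 and 21.5 TPM (-1.73 ± 0.27). The groups do not overlap in either, which the rule for naming them required. Acat2 and Idi1 work in sterol precursor metabolism and fell by 1.55 and 1.43. Dach1, a transcriptional cofactor, the centromere protein Cenpv, the splicing regulator Mbnl3 and the potassium channel proteins Kcnip1 and Kcne3 changed by -1.5, -1.49, -1.46, -1.48 and -1.47. Adenylate kinase Ak5, the RNase P and MRP subunit Rpp25, the exosome subunit Exosc8 and the MAP kinase phosphatase Dusp9 changed by -1.45, -1.44, -1.43 and -1.42. Ak5 did not pass without panobinostat 3 (limma adjusted p = 0.0635), and Dusp9 without vehicle 2, panobinostat 1 or panobinostat 3 (limma adjusted p = 0.0609 to 0.0987). Kcne3 did not pass without panobinostat 1 and with array weights (limma adjusted p = 0.0808 to 0.122).

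**Figure D2:**
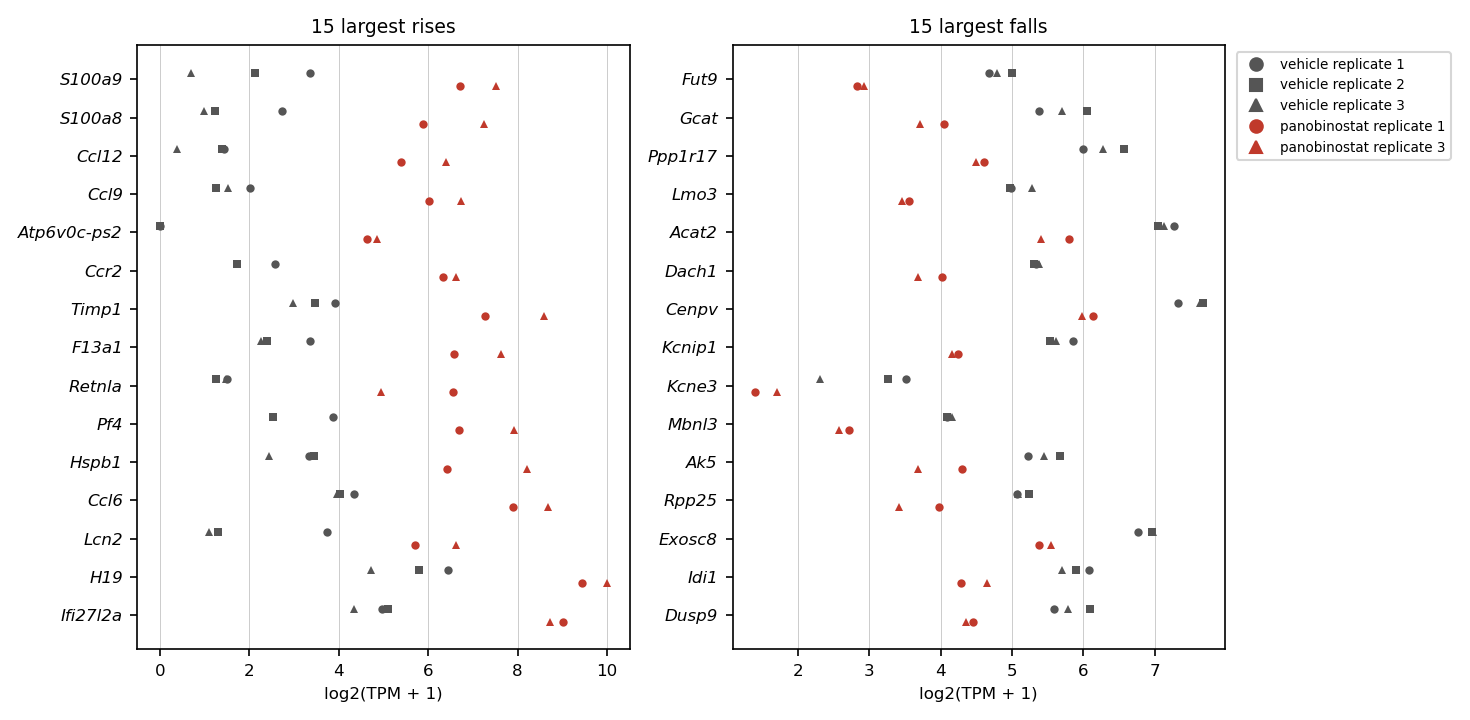
Levels in log2(TPM + 1) (x axis) of the 15 genes with the largest rises (left) and falls (right), 1 row per gene, with vehicle libraries in grey and panobinostat libraries in red, marked by replicate. The groups do not overlap in any row, as the naming rule required, and the gaps on the left are wider, with log2 changes from 4.06 (Ifi27l2a) to 5.04 (S100a9) against -1.95 (Fut9) to -1.42 (Dusp9).

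Among the targets of the drug, Hdac2 was the class I gene that changed most. It stood at 331, 299 and 303 TPM with vehicle and 176 and 173 TPM after panobinostat (chromosome 10, 36974297 to 37001889), a log2 change of -0.83 ± 0.16 (SE, adjusted p = 0.00265). Hdac3 fell from 68.6, 65.9 and 73.2 to 58.7 and 50.8 TPM (-0.34 ± 0.11, adjusted p = 0.0385), while Hdac1 had 53.8, 40.99 and 44.4 TPM with vehicle and 39.4 and 33.7 TPM after panobinostat and did not pass (adjusted p = 0.0725). Hdac8, a class I enzyme that works outside the corepressor complexes, rose from 6.32, 5.23 and 5.27 to 8.98 and 7.64 TPM (0.5 ± 0.16), and its direction turned after quantile normalization (-0.17). Of 7 tested class II and IV genes none passed limma's threshold, and 0 rose or fell at an unadjusted p under 0.05. In the corepressor complexes 7 of 23 genes fell (30.4%, against 16.9% of all tested genes). Among them were the histone-binding subunits Rbbp4 (-0.6) and Rbbp7 (-0.52), the SIN3 subunit Sap30 (75.5, 87.7 and 88.7 to 47.6 and 45.6 TPM, -0.83 ± 0.14) and the NuRD helicase Chd3 (-0.97). Kat8, the acetyltransferase for lysine 16 of histone H4, was the 1 of 12 acetyltransferase and BET reader genes to fall (-0.48). That share of 8.33% lies below the 16.9% of all tested genes. Genes of heterochromatin fell in 8 of 18 cases (44.4%, against 16.9% of all tested genes). Among them were the HP1 genes Cbx1, Cbx3 and Cbx5 by 0.49, 0.9 and 0.79, and the H3 lysine 9 methyltransferases Suv39h1 and Suv39h2 by 0.87 and 1.12. The KRAB zinc finger corepressor Trim28 fell from 289, 281 and 276 to 172 and 145 TPM (-0.83 ± 0.17). Ezh1, a Polycomb methyltransferase of resting cells, rose from 4.01, 3.96 and 3.35 to 10.2 and 10.3 TPM (1.24 ± 0.29), while its relative Ezh2 stood at 101, 75.2 and 87.5 TPM with vehicle and 59.9 and 50.2 TPM after panobinostat without passing (adjusted p = 0.0931). Without panobinostat 3 the falls numbered 4 in the corepressor list and 3 in the heterochromatin list, and without vehicle 1 the latter 5. Cbx5 and Suv39h2 did not pass without panobinostat 3 (limma adjusted p = 0.0529 to 0.0691), and Ezh1 after quantile normalization (limma adjusted p = 0.0959). Hdac3 did not pass without vehicle 1, vehicle 2, vehicle 3 or panobinostat 3, after quantile normalization, rescaled without histone and small RNA genes and with no trend (limma adjusted p = 0.054 to 0.246), and Hdac8 without vehicle 2, vehicle 3, panobinostat 1 or panobinostat 3, after quantile normalization and in the fit of these 5 libraries alone (limma adjusted p = 0.0535 to 0.443). Kat8 did not pass without vehicle 1, vehicle 2, panobinostat 1 or panobinostat 3 and with array weights (limma adjusted p = 0.0533 to 0.164), and Suv39h1 without vehicle 1, vehicle 2, vehicle 3 or panobinostat 3 and after quantile normalization (limma adjusted p = 0.0538 to 0.173).

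Histone genes took a smaller share of the libraries. Clustered, replication-dependent histone genes made up 8.31, 8.71 and 9.60% of all TPM in vehicle and 5.63 and 5.44% after panobinostat. Gene by gene, 2 of 68 fell (2.94%, against 16.9% of all tested genes), 2 rose and 64 were not called. In 61 of the 68 both panobinostat libraries lay below the vehicle libraries, against 27.8% of all tested genes. The summed share fell by 3.33 points with no overlap, where the exact permutation test of 2 against 3 libraries can give no p below 0.2 and gave 0.2. Of the replication-independent histones, 5 of 11 fell and 1 rose, with 3 falls without panobinostat 1, without panobinostat 3 or after quantile normalization. H2afz, the H2A.Z variant at promoters, fell from 1972, 1938 and 2107 to 911 and 1047 TPM (-1.04 ± 0.20). H2afy2, a macroH2A, fell from 125, 102 and 114 to 52.3 and 46.7 TPM (-1.18 ± 0.21), while H2afj rose from 20.8, 21.6 and 18.2 to 36.3 and 30.4 TPM. The linker histone gene H1f0, a known responder to HDAC inhibitors, had 211, 159 and 190.3 TPM with vehicle and 283 and 243 TPM after panobinostat, above all 3 vehicle libraries, but did not pass (adjusted p = 0.113). The share of small nucleolar and Cajal body RNAs moved the other way, from 4.93 ± 0.279% (SD, n = 3) to 6.53 ± 0.869% (SD, n = 2) of TPM. Of 36 tested genes of this class 2 rose and 1 fell. Ribosomal protein genes fell in share from 12.9 ± 0.175% to 11 ± 0.00726%. For both shares the exact permutation p was 0.2.

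Of 17 genes known from other systems to respond to HDAC inhibitors 13 rose (76.5%, against 25.5% of all tested genes) and 3 fell (17.6%, against 16.9%). Their median change was 1.58, against 0.10 over all tested genes. Cdkn1a (chromosome 17, 29090979 to 29100722), which encodes p21, went from 6.47, 4.56 and 3.86 to 23.5 and 23.5 TPM (2.06 ± 0.40, adjusted p = 0.00322). Gsn, the actin-severing gelsolin, rose from 12.5, 18.4 and 16.8 to 179 and 296 TPM (3.79 ± 0.53). Txnip, which binds thioredoxin and limits glucose uptake, rose from 44.05, 35.2 and 49.1 to 183 and 198 TPM (2.14 ± 0.27). The stress gene Gadd45b rose from 2.31, 1.92 and 1.53 to 15.9 and 18.99 TPM, and the secreted chaperone Clu by 2.99. Tyms and Ctps, enzymes of thymidylate and CTP synthesis, and Ccnd1 were the 3 that fell (-0.92, -0.82 and -0.83). Klf2, Klf4 and Klf6, which count in this list too, were among 6 of 14 tested Kruppel-like factors that rose, with Klf3 the furthest from 2.51, 1.08 and 0.94 to 13.3 and 12.1 TPM, and 3 of the 14 rose without panobinostat 3 or after quantile normalization. In RefSeq promoter windows of GRCm38.p6 (250 bases before to 50 after a start), the SP1-type letters GGGCGG, read on both strands, occurred in 14 of the 18 windows of the 14 list genes that matched (77.8%) and in 35.7% of all 32851 windows. The stretches with that match upstream of Txnip and Gadd45b, which both rose, are shown 5′ to 3′ on the gene's strand with the match, or its reverse complement, in capitals. Both lie within 250 bases of the start, at chr3:96557707-96557766 (plus strand) and chr10:80929906-80929965 (plus strand).
Txnip: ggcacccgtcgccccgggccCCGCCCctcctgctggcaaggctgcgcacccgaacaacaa
Gadd45b: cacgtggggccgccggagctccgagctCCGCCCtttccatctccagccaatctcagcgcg
Without panobinostat 3 the rises in this list numbered 8. Ccnd1, Clu and Ctps did not pass without panobinostat 3 (limma adjusted p = 0.0542 to 0.0664), and Tyms without vehicle 1 or panobinostat 3 (limma adjusted p = 0.0559 to 0.117).

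Genes of cell cycle control were called in both directions, and of all tested genes 25.5% rose and 16.9% fell. Of 8 CDK inhibitor genes, Cdkn1a and Cdkn1c (p57, 5.61, 4.04 and 4.66 to 18.7 and 15.1 TPM, 1.64 ± 0.23) rose, while Cdkn1b (p27) fell from 69.01, 64.3 and 79.8 to 38.8 and 39.3 TPM (-0.84 ± 0.14) and Cdkn2d (p19) from 46.5, 42.4 and 48.5 to 26.1 and 27.5 TPM. The D-type cyclins, which carry growth signals to the kinases CDK4 and CDK6, split. Ccnd1 fell from 375, 278 and 309 to 192 and 165 TPM (-0.83 ± 0.20) and Cdk4 from 649.9, 665 and 634 to 359.6 and 321 TPM (-0.93 ± 0.19). Ccnd2 rose from 3.37, 1.81 and 1.43 to 17.4 and 13.9 TPM (2.42 ± 0.46) and Cdk6 from 1.31, 0.61 and 0.73 to 6.15 and 7 TPM (2.02 ± 0.35), so the members with the higher vehicle level fell and those with the lower level rose. Ccnd3 rose too, by 0.96. In all, 4 of 28 cyclin, CDK and E2F-RB genes rose (14.3%) and 7 fell (25%), and the falls numbered 12 in the fit of these 5 libraries alone, 2 without panobinostat 3, 3 without panobinostat 1 and 4 without vehicle 2 or vehicle 3. Ccnd1 did not pass without panobinostat 3 (limma adjusted p = 0.0664).

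DNA replication genes fell. Of 49 tested, 32 fell (65.3%, against 16.9% of all tested genes), 47 had both panobinostat libraries below all vehicle libraries, against 27.8% of all tested genes, and the median change was -0.79. Pcna, the polymerase clamp, went from 548, 518 and 532 to 269 and 292 TPM (-0.92 ± 0.21). The origin recognition subunit Orc2 went from 65.6, 66.3 and 64.4 to 33.98 and 33.2 TPM (-0.94 ± 0.13, adjusted p = 0.000887) and the helicase subunit Cdc45 from 94.6, 85.7 and 85.7 to 41.5 and 35.5 TPM (-1.19 ± 0.38). Rfc3, of the clamp loader, and the polymerase epsilon subunit Pole2 changed by -0.92 and -1.001, and the replicative helicase subunits Mcm5 and Mcm6 by -0.88 and -0.84. The E2F-type letters TTTCCCGC, TTTGGCGC or TTTCGCGC (both strands, the last pair able to overlap) were in 14 of the 47 promoter windows of 40 matched genes (29.8%) and in 1.84% of all windows. For 3 genes that fell, the stretch around the match is given with the matched letters in capitals, at chr5:151651209-151651268 (minus strand), chr1:128359782-128359841 (minus strand) and chr8:75109330-75109389 (plus strand), and in the MCM pair the capitals hold overlapping matches on both strands.
Rfc3: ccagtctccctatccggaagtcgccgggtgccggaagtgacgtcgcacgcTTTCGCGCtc
Mcm6: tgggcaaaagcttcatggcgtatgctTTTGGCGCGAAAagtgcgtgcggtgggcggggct
Mcm5: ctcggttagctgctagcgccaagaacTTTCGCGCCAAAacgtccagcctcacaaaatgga
The number of falls in the list was 8 without panobinostat 3, 18 without panobinostat 1, 18 and 20 without vehicle 1 and 3, and 21 after quantile normalization. Cdc45 and Mcm6 did not pass without vehicle 1, vehicle 2, vehicle 3, panobinostat 1 or panobinostat 3 and after quantile normalization (limma adjusted p = 0.0574 to 0.138), and Mcm5 without vehicle 1, vehicle 2, vehicle 3, panobinostat 1 or panobinostat 3, with no filter, after quantile normalization, rescaled without histone and small RNA genes and with no trend (limma adjusted p = 0.054 to 0.162).

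Mitotic genes were lower as well, and fewer passed the test. All 42 had both panobinostat libraries below the 3 vehicle libraries, against 27.8% of all tested genes. Of the 42, 26 fell (61.9%, against 16.9% of all tested genes), and the median change was -0.98. Ccnb1, the mitotic cyclin, had 340.2, 341 and 372 TPM with vehicle and 145 and 157 TPM after panobinostat (-1.21 ± 0.37, adjusted p = 0.0251). Cdc20, the activator of the anaphase-promoting complex, went from 183, 185 and 202 to 79.5 and 83.5 TPM (-1.21 ± 0.37), and the CDK subunit gene Cks2 from 329, 306 and 357 to 136 and 145 TPM (-1.23 ± 0.31). The checkpoint gene Mad2l1 and the spindle genes Aspm and Cenpf changed by -1.05, -1.15 and -1.03. The proliferation marker Mki67 went from 408, 281 and 325 to 236 and 189 TPM and topoisomerase Top2a from 458, 358 and 413 to 225 and 219 TPM, and neither passed (adjusted p = 0.214 and 0.0928). The calls in this list rest on few libraries, with 0 without panobinostat 3 in limma (0 higher and 18 lower at an unadjusted p under 0.05), 3 without panobinostat 1, 9, 13 and 6 without vehicle 1, 2 and 3, 12 after quantile normalization, 17 with no filter, and 41 when only the 5 libraries of this comparison were fitted. In promoter windows of this list the cell cycle homology letters TTTGAA and the CCAAT box, both strands, occurred together in 24 of the 39 windows of 36 matched genes (61.5%) and in 6.95% of all windows. The windows of 4 genes that fell show the pair within 70 bases, with matches on either strand in capitals, at chr4:118437344-118437413 (minus strand), chr2:164769840-164769909 (plus strand), chr3:27153955-27154024 (minus strand) and chr7:80294382-80294451 (plus strand).
Cdc20: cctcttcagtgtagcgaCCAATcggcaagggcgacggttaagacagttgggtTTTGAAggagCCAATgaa
Ube2c: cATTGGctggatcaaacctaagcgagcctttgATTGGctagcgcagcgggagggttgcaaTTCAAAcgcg
Ect2: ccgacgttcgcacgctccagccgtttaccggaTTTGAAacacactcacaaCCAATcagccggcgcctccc
Prc1: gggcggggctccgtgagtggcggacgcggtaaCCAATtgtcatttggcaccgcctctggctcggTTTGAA
Ube2c charges the anaphase-promoting complex with ubiquitin and went from 302, 293 and 308 to 136 and 149 TPM, and Ect2 and Prc1, which build the cleavage furrow and the central spindle, changed by -0.98 and -0.83. Aspm, Cenpf and Mad2l1 did not pass without panobinostat 3 (limma adjusted p = 0.0634 to 0.0889), and Ccnb1 without vehicle 1, vehicle 2, vehicle 3, panobinostat 1 or panobinostat 3 (limma adjusted p = 0.0523 to 0.0978). Cdc20 did not pass without vehicle 2, vehicle 3, panobinostat 1 or panobinostat 3 (limma adjusted p = 0.0501 to 0.0895), and Cks2 without panobinostat 1 or panobinostat 3 (limma adjusted p = 0.0518 to 0.055). Ect2 did not pass without vehicle 1, vehicle 3, panobinostat 1 or panobinostat 3, with no filter and after quantile normalization (limma adjusted p = 0.0534 to 0.15), and Prc1 without vehicle 1, vehicle 2, vehicle 3, panobinostat 1 or panobinostat 3, with no filter, after quantile normalization, rescaled without histone and small RNA genes, rescaled without skeletal muscle list and with no trend (limma adjusted p = 0.0504 to 0.165). Ube2c did not pass without vehicle 1, vehicle 2, vehicle 3, panobinostat 1 or panobinostat 3 and after quantile normalization (limma adjusted p = 0.0603 to 0.125).

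Genes of homologous recombination and the damage checkpoint fell in 8 of 32 cases (25%, against 16.9% of all tested genes). Among them were the kinases Atr (35.9, 35.4 and 33.3 to 23.4 and 20.3 TPM, -0.65 ± 0.12) and Atm (-0.63), Fancm (-0.98) and Rbbp8 (-0.67). Brca1 went from 46.7, 36.7 and 37.1 to 24.6 and 19.5 TPM without passing (adjusted p = 0.0736). The count of falls in this list was 2 without panobinostat 3, 4 and 5 without vehicle 1 and 3, 15 with array weights and 14 in the fit of these 5 libraries alone. Atm and Fancm did not pass without panobinostat 3 (limma adjusted p = 0.0586 to 0.0926).

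Genes for making ribosomes fell. Of 38 ribosome biogenesis genes 33 fell (86.8%, against 16.9% of all tested genes), with a median of -0.77. Their summed level went from 4965 to 5529 TPM in vehicle to 2615 to 2964 TPM after panobinostat. Npm1, the nucleolar chaperone, fell from 2293, 2120.2 and 2029 to 1047 and 1001 TPM (-1.07 ± 0.18). Dyskerin (Dkc1), which pseudouridylates ribosomal RNA, fell from 80.2, 83.8 and 73.6 to 34.02 and 36.2 TPM (-1.15 ± 0.18) and the methyltransferase fibrillarin (Fbl) from 199.7, 201 and 197 to 106 and 104 TPM. Nop16, Utp20 and Tsr1 changed by -0.86, -0.82 and -0.8, with groups that do not overlap. Of 82 ribosomal protein genes 25 fell (30.5%), with a median of -0.26. The E-box letters CACGTG, to which MYC and MAX bind, were in 9 of the 36 promoter windows of 32 matched biogenesis genes (25.0%) and in 7.15% of all windows. That of Nop2, an rRNA methyltransferase whose gene fell from 66.5, 73.9 and 60.1 to 37.9 and 31.8 TPM, holds it in capitals at chr6:125131796-125131855 (plus strand).
Nop2: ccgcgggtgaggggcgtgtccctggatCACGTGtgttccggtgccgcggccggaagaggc

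The mouse Mycn gene itself had 5.69, 6.46 and 5.94 TPM with vehicle and 12.2 and 7.33 TPM after panobinostat and did not pass (adjusted p = 0.295), and the human transgene was not analysed here. In the MYC network 3 of 13 genes rose and 3 fell (23.1% each), near the shares of all tested genes (25.5% and 16.9%), and without panobinostat 3 these counts were 1 and 0. Myc rose from 2.42, 1.13 and 1.61 to 6.27 and 4.37 TPM (1.23 ± 0.38) and the MAX partner Mxd4 from 16.5, 17.3 and 21.5 to 43.9 and 44.2 TPM (1.22 ± 0.21). Mlxipl rose as well (1.22), while Mxd3 (-0.92) and Mlx (-0.49) were among the falls. Polyamine genes were called in both directions, 6 of 14 lower and 3 higher. Ornithine decarboxylase (Odc1), the first enzyme of the pathway, fell from 192, 190.4 and 171 to 103 and 102 TPM (-0.84 ± 0.13), and the spermidine and spermine synthases Srm and Sms fell by 1.16 and 0.83. The acetyltransferase Sat1, which starts polyamine breakdown, rose from 73.4, 85.2 and 88.5 to 274 and 307 TPM (1.81 ± 0.21), and the oxidases Smox and Paox rose by 0.98 and 1.64. No library of either group overlapped the other in these 6 genes. The other 3 falls were Azin1, Dhps and Dohh, the other 5 genes were not called, and the falls numbered 1 without panobinostat 3 and 3 without panobinostat 1. Mlx did not pass without panobinostat 1 or panobinostat 3 (limma adjusted p = 0.0619 to 0.0732), and Mlxipl without vehicle 3, panobinostat 1 or panobinostat 3 and after quantile normalization (limma adjusted p = 0.0646 to 0.436). Mxd3 did not pass without vehicle 1, vehicle 2, vehicle 3, panobinostat 1 or panobinostat 3, with no filter, after quantile normalization, rescaled without histone and small RNA genes and with no trend (limma adjusted p = 0.0543 to 0.195), and Myc without vehicle 2, vehicle 3, panobinostat 1 or panobinostat 3 and after quantile normalization (limma adjusted p = 0.0597 to 0.411). Sms did not pass without vehicle 1, panobinostat 1 or panobinostat 3 and after quantile normalization (limma adjusted p = 0.0526 to 0.102), and Srm without panobinostat 3 (limma adjusted p = 0.0945).

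Of the microRNA host genes 2 are given, chosen after their values were seen. Mir17hg, which carries a cluster of growth-promoting miRNAs known as a MYC target, fell from 64.8, 56.3 and 64.5 to 25.4 and 24.5 TPM (-1.27 ± 0.22, adjusted p = 0.002), and Mir22hg rose from 2.58, 2.08 and 1.41 to 12.4 and 18.9 TPM (2.45 ± 0.30, adjusted p = 0.000584). The libraries measure these long transcripts and not mature miRNAs. To show what the 2 hosts carry, mature sequences within them are given from RefSeq (GRCm38.p6) with the seed, bases 2 to 8, in capitals, and the seeds differ.
miR-92a-3p (Mir17hg): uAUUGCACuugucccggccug
miR-22-3p (Mir22hg): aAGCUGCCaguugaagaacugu

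Sterol genes fell while genes of lipid efflux rose. In the cholesterol synthesis list 17 of 23 fell (73.9%, against 16.9% of all tested genes), with a median of -0.76. Lss, which encodes lanosterol synthase, fell from 20.1, 14.3 and 14.9 to 6.93 and 5.77 TPM (-1.24 ± 0.18, adjusted p = 0.00102), and Cyp51, a demethylase of the same pathway, from 48.3, 41.5 and 38.8 to 18.02 and 19.8 TPM (-1.14 ± 0.17). Of 14 genes of lipid efflux and of the liver X receptor, 10 rose (71.4%, against 25.5% of all tested genes), with a median of 2.11. The cholesterol exporter Abca1 went from 23.6, 15.7 and 18.99 to 124 and 128 TPM (2.65 ± 0.32), and the receptor Nr1h3 from 6.53, 9.99 and 7.58 to 30.9 and 29.7 TPM (1.81 ± 0.27). Abcg1, a partner exporter, and the lipase Lpl rose by 2.08 and 2.84. Macrophages and fat cells express several of these, and the summed macrophage list rose from 1001 to 1231 TPM to 5379 to 6809 TPM, whose part in the efflux genes was not tested. The sterol falls numbered 11 without panobinostat 3, 10 without panobinostat 1 and 11 without vehicle 1.

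Chaperone genes were called in both directions, and of all tested genes 25.5% rose and 16.9% fell. Of 23 genes 15 fell and 6 rose. The cytosolic Hsp90aa1 fell from 1855, 1943 and 1822 to 868 and 881 TPM (-1.1 ± 0.15) and the mitochondrial chaperonin Hspd1 from 762, 774 and 695 to 335 and 326 TPM (-1.17 ± 0.16). The co-chaperones Dnaja1 and Hsph1 fell by 0.85 and 1.13. Among the small heat shock genes, Hspb1 rose from 9.06, 9.83 and 4.41 to 84.2 and 295 TPM, Cryab from 4.72, 4.24 and 2.22 to 21.1 and 212 TPM and Hspb8 from 5.39, 2.14 and 2.8 to 15.1 and 61.04 TPM. All 3 are also muscle genes and were highest in panobinostat 3, the library with muscle transcripts, and the part of muscle in their rise was not tested. The stress-inducible HSP70 genes Hspa1a and Hspa1b, near-identical copies whose reads cannot be split with certainty, rose by 1.5 and 1.59, and Hspa2 by 1.53. In the amino acid and unfolded protein stress list, the serine and one-carbon enzymes Psat1 and Mthfd2 and the asparagine synthetase Asns fell by 1.16, 1.26 and 0.97, among 5 falls, and the stress factor Atf3 rose from 7.72, 6.12 and 5.91 to 20.7 and 25.8 TPM, among 7 rises of 24 genes. The rises numbered 1 to 3 when panobinostat 1, panobinostat 3, vehicle 1 or vehicle 3 was left out, and the falls 3 without panobinostat 1. Hmox1, the haem-degrading enzyme, rose from 42.8, 42.05 and 30.2 to 137 and 368 TPM (2.54 ± 0.43), 1 of 3 rises in 22 glycolysis and hypoxia genes, a count of 1 without vehicle 3 or panobinostat 3 and of 8 with array weights. Hspa1a did not pass without vehicle 1, vehicle 3, panobinostat 1 or panobinostat 3, with a pseudocount of 5, with no filter and after quantile normalization (limma adjusted p = 0.0505 to 0.249), and Hspa1b after quantile normalization (limma adjusted p = 0.0582).

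Of 36 genes of the neuronal cytoskeleton and synapse 9 fell (25%, against 16.9% of all tested genes) and 3 rose (8.33%, against 25.5%). Stmn3, a stathmin of neurons, fell from 205, 182 and 208 to 82.8 and 70.8 TPM (-1.36 ± 0.15, adjusted p = 0.000458), and beta-III tubulin (Tubb3) from 769.6, 867 and 873 to 355 and 349.5 TPM (-1.24 ± 0.36). Stmn2 and the microtubule-associated Map2 fell by 0.8 and 0.81. Peripherin (Prph), an intermediate filament of peripheral neurons, went the other way from 4.06, 1 and 3.9 to 18.1 and 15.8 TPM (2.28 ± 0.47), and Dpysl3, a growth cone protein gene, rose by 1.1. The falls numbered 1 without panobinostat 3, 4 without panobinostat 1 and 3 without vehicle 3, and 15 in the fit of these 5 libraries alone. Map2 did not pass without panobinostat 3 (limma adjusted p = 0.0776), and Stmn2 without vehicle 1, vehicle 3 or panobinostat 3 (limma adjusted p = 0.052 to 0.108). Tubb3 did not pass without vehicle 3, panobinostat 1 or panobinostat 3 (limma adjusted p = 0.0518 to 0.0856).

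Of 19 noradrenergic transcription factors 2 fell (10.5%, against 16.9% of all tested genes). The cofactor Lmo3 fell from 30.6, 30.3 and 37.9 to 10.7 and 10.02 TPM (-1.57 ± 0.28) and Gata3 from 23.1, 17.3 and 18.4 to 12.7 and 8.2 TPM (-0.87 ± 0.24). Hand2, a factor of the same circuit, had 170.2, 139.7 and 178 TPM with vehicle and 177 and 112 TPM after panobinostat, with groups that overlap, and did not pass (adjusted p = 0.581). Th, the rate-limiting enzyme of catecholamine synthesis, overlapped between groups, with 179, 99.6 and 132 TPM with vehicle and 215 and 120.5 TPM after panobinostat (adjusted p = 0.623). Of the 14 catecholamine genes 1 fell (7.14%) and 2 rose (14.3%, against 25.5% of all tested genes), among them Cyb561 (-0.66) and Pts (0.72). The neuropeptide and granule list had 20% rises and 6.67% falls. Among 15 neuropeptide and granule genes Vip, Gal and Vgf rose by 2.19, 1.64 and 1.34, and Scg5 fell by 0.61, with 1 rise without panobinostat 1 or after quantile normalization. Vip, a peptide of differentiating neuroblasts, was at most 0.23 TPM with vehicle and 4.58 and 3.54 TPM after panobinostat. Of 18 genes for neurotrophic factors and receptors 8 rose (44.4%) and 2 fell (11.1%). Among the rises was the BDNF receptor Ntrk2, from 2.57, 2.71 and 2.67 to 9.26 and 6.47 TPM (1.26 ± 0.26). Ngfr and Gfra2 rose by 1.99 and 1.82. Alk, a receptor kinase mutated in some neuroblastomas, had 43.5, 19.01 and 20.1 TPM with vehicle and 77.2 and 29.3 TPM after panobinostat (adjusted p = 0.199). Those rises numbered 5 without panobinostat 1 and 1 after quantile normalization. The oncofetal RNA-binding gene Lin28b fell from 25.7, 22.4 and 22.3 to 13.2 and 8.59 TPM (-1.07 ± 0.29), and Igf2bp2 rose from 0.26, 0.08 and 0.03 to 2.29 and 4.16 TPM. Schwann and glial markers, which share Ngfr with the receptor list, rose in 11 of 14 cases, with summed levels of 105 to 168 TPM in vehicle and 296 to 313 TPM after panobinostat, in 6 and 7 cases without panobinostat 1 and 3 and in 7 after quantile normalization, and their part in the receptor changes was not tested. Gal did not pass without panobinostat 1 or panobinostat 3 and after quantile normalization (limma adjusted p = 0.0557 to 0.0804), and Gata3 without vehicle 1 or panobinostat 3 (limma adjusted p = 0.0553 to 0.158). Lin28b did not pass without panobinostat 3 (limma adjusted p = 0.128), and Ngfr and Ntrk2 after quantile normalization (limma adjusted p = 0.0516 to 0.125). Pts did not pass without vehicle 1, panobinostat 1 or panobinostat 3 (limma adjusted p = 0.0571 to 0.096), and Scg5 without vehicle 1, vehicle 3, panobinostat 1 or panobinostat 3 and after quantile normalization (limma adjusted p = 0.0526 to 0.133). Vgf did not pass without vehicle 1, vehicle 2, vehicle 3 or panobinostat 1, with a pseudocount of 5, with no filter and after quantile normalization (limma adjusted p = 0.0607 to 0.319).

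**Figure D3:**
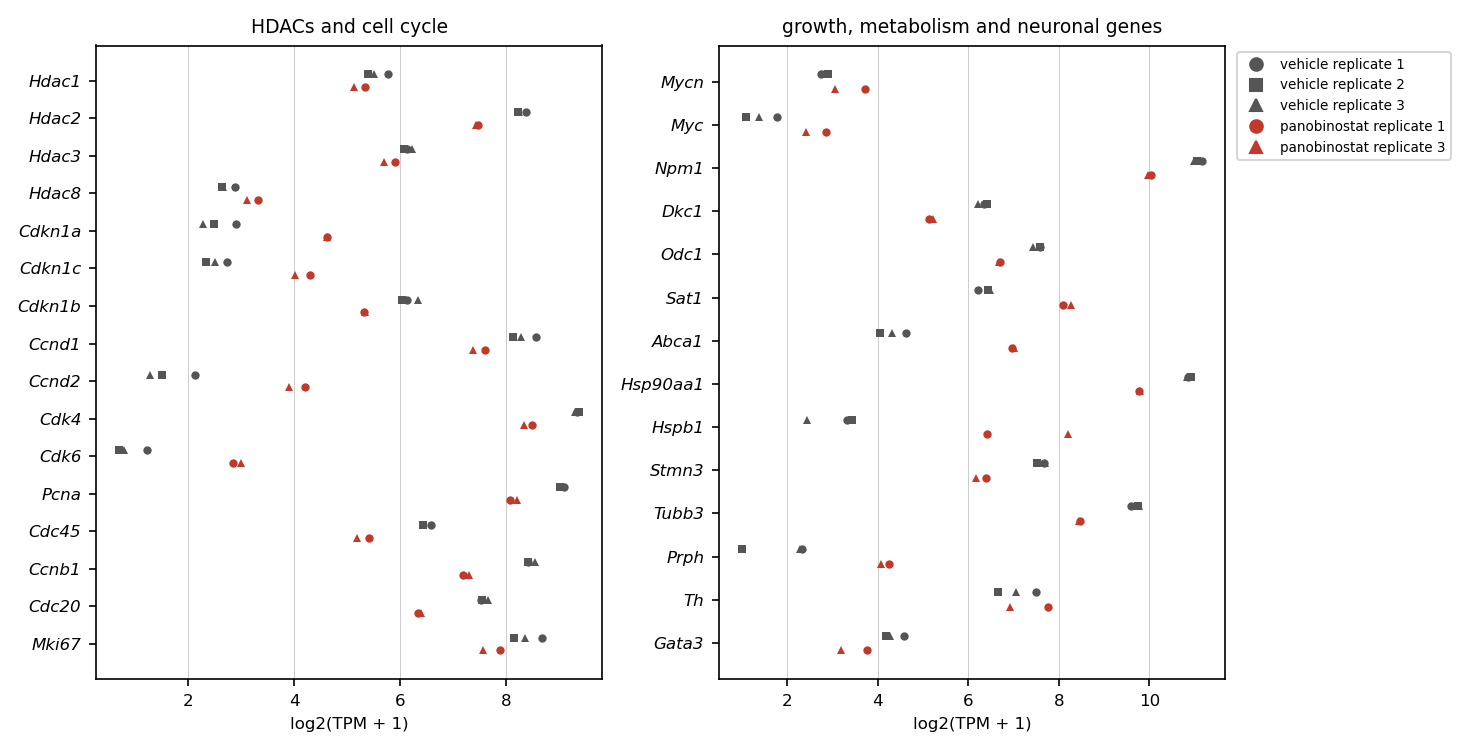
Levels in log2(TPM + 1) (x axis) of 16 HDAC and cell cycle genes (left) and 14 growth, metabolic and neuronal genes (right), with vehicle libraries in grey and panobinostat libraries in red, marked by replicate. Cdkn1a, Ccnd2 and Cdk6 moved up and Hdac2, Ccnd1, Cdk4 and Pcna down with no overlap, while the groups overlap for Th and lie close for Hdac1.

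Of 28 BCL2 family and death receptor genes 12 rose (42.9%, against 25.5% of all tested genes) and 4 fell (14.3%, against 16.9%). The TNF receptor Tnfrsf1a rose from 5.03, 4.86 and 3.62 to 33.6 and 47.1 TPM (2.9 ± 0.31) and the death receptor Fas from 1.2, 0.61 and 0.6 to 9.33 and 8.88 TPM (2.5 ± 0.44). The initiator caspase Casp8 and the pore former Bak1 rose by 2.35 and 1.79. The anti-apoptotic Mcl1 rose from 95.9, 80.2 and 82.4 to 109 and 128 TPM (0.46 ± 0.15). Bcl2 went from 4.73, 3.21 and 3.54 to 5.29 and 5.1 TPM and Bcl2l11, which encodes the killer BIM, from 12.6, 7.33 and 9.33 to 13.8 and 10.4 TPM, and neither passed (adjusted p = 0.233 and 0.451). Among the falls were the family members Bid, Hrk and Bok (-0.62, -0.91 and -0.76). Of 26 genes known as p53 targets 13 rose (50%, against 25.5% of all tested genes) and 2 fell (7.69%, against 16.9%). Phlda3, an inhibitor of AKT, rose from 4.03, 5.26 and 5.27 to 20.2 and 18.3 TPM (1.8 ± 0.23), and the NOXA gene Pmaip1 and the TRAIL receptor Tnfrsf10b rose by 1.63 and 1.45. Mdm2, which marks p53 for degradation, had 51.7, 40.7 and 46.1 TPM with vehicle and 40.6 and 34.1 TPM after panobinostat (adjusted p = 0.104). Fas, Pmaip1, Tnfrsf10b and Cdkn1a stand in more than 1 of these lists. The p53 list had 7 rises without panobinostat 3 or without vehicle 2. Hrk did not pass without vehicle 1 or panobinostat 3 (limma adjusted p = 0.0619 to 0.17), and Mcl1 without vehicle 2, vehicle 3 or panobinostat 3 and with no trend (limma adjusted p = 0.0509 to 0.204).

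Genes of macrophages and monocytes rose together. All 22 of their markers rose (median 2.72), against 25.5% of all genes. Fewer tested markers rose for dendritic cells (5 of 10), mast cells (1 of 6) and platelets and megakaryocytes (2 of 6). Of 15 neutrophil markers in the files 10 passed the filter, some of them only through treated libraries, and these 10 rose, while 5, among them the granule genes Mpo and Elane, stayed under 1 TPM in all 5 libraries. Cd68 went from 23.2, 27.97 and 29.4 to 156 and 202 TPM (2.69 ± 0.27, adjusted p = 0.000439), and the scavenger receptor Msr1 from 14.9, 16.8 and 12.1 to 105 and 165 TPM (3.1 ± 0.28). The inflammatory monocyte marker Ly6c2 went from 0.6, 2.17 and 0 to 15.9 and 19.9 TPM, and the Fc receptor gene Fcgr1 rose by 3.24. None of these groups overlap. Of 32 lysosome and phagocytosis genes 31 rose (median 2.11), among them the proteases Ctsl (2.65) and Lgmn (2.46), and in all 32 both panobinostat libraries lay above the vehicle libraries, against 37.1% of all tested genes. Of 24 Fc receptor and ITAM genes 23 rose (median 2.32), led by Lilrb4a, an inhibitory receptor, from 11.9, 13.04 and 12.3 to 129 and 198 TPM (3.58 ± 0.26, adjusted p = 0.000159). Of 27 Toll-like receptor and inflammasome genes 26 rose (median 2.13), among them Tlr13 (2.75), a sensor of bacterial RNA, and the inflammasome adaptor Pycard (2.58). Of 21 complement genes 18 rose (median 2.40), among them the anaphylatoxin receptor C3ar1 (2.83). Of lymphoid markers, 3 of 16 for T cells (18.8%: Il7r, Cd4 and Cd28), 1 of 11 for B cells (9.09%: Cd22) and 0 of 5 for NK cells rose. These shares lie below the 25.5% of all tested genes, but most of these markers lie near the floor. Under 1 TPM in all 5 libraries were 10 of 17 T cell, 7 of 12 B cell and 10 of 11 NK cell markers. Both panobinostat libraries lay above the vehicle libraries in 11 of 16, 8 of 11 and 2 of 5 tested markers, against 37.1% of all tested genes. The PU.1-type letters GAGGAAGT were in 4 of the 17 promoter windows of 15 matched macrophage genes (23.5%) and in 3.2% of all windows, shown in capitals for C1qc and Ly6c2 at chr4:136893076-136893135 (minus strand) and chr15:75112046-75112105 (minus strand), on either strand.
C1qc: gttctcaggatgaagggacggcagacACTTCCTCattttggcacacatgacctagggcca
Ly6c2: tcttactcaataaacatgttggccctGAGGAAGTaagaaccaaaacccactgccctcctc
In whole-tumour RNA, more or fewer cells of a type and more or less RNA per cell cannot be told apart.

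Stromal genes rose as well, where 25.5% of all tested genes rose and 16.9% fell. All 31 collagen and basement membrane genes rose, with a median of 2.60, and 14 of 15 fibroblast markers with a median of 3.14. Col1a2 went from 72.4, 43.7 and 57.5 to 429.8 and 445 TPM (2.93 ± 0.38) and Col6a1 from 15.5, 12.7 and 11.96 to 112 and 121 TPM (3.03 ± 0.29). Periostin (Postn), a matrix protein of activated fibroblasts, went from 92.9, 45.5 and 79.2 to 682 and 811 TPM (3.4 ± 0.37), and the crosslinking enzyme gene Lox rose by 3.18. Of 29 matrix protease and inhibitor genes 28 rose, among them the collagen chaperone Serpinh1 (2.67). All 17 endothelial and all 12 pericyte and smooth muscle markers rose, among them Pecam1 (2.18) and smooth muscle actin Acta2 (3.13), and the endothelial count was 10 without panobinostat 3. Of 31 TGF-beta and BMP genes 22 rose (71%, median 1.19) and Smad4 fell by 0.44. Tgfbi, a matrix protein induced by the pathway, and the receptor gene Tgfbr2 rose by 3.58 and 2.82. The count of rises in that list was 13 without panobinostat 3 and 13 after quantile normalization. Of 19 Notch genes 10 rose (52.6%), among them the glycosyltransferase Lfng, from 1.8, 1.85 and 1.6 to 18.3 and 20.04 TPM (2.88 ± 0.33), and the target Heyl (2.11). Mesenchymal-state transcription factors rose in 16 of 19 cases (median 1.40), with Prrx1 from 2.68, 1.45 and 1.2 to 21.6 and 23.5 TPM (3.12 ± 0.32) and Yap1 higher by 2.13, and in 10 after quantile normalization. Fibroblasts express these factors too, and the part of fibroblast transcripts, summed at 298 to 492 TPM in vehicle and 3113 to 3606 TPM after panobinostat, was not tested. Smad4 did not pass without vehicle 1, vehicle 3 or panobinostat 3, after quantile normalization and in the fit of these 5 libraries alone (limma adjusted p = 0.0652 to 0.222).

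Of 28 tested imprinted genes 4 rose (14.3%, against 25.5% of all tested genes) and 7 fell (25%, against 16.9%). H19 (chromosome 7, 142575530 to 142578146) went from 85.9, 54.6 and 25.3 to 689.9 and 1029 TPM (4.07 ± 0.67) and its neighbour Igf2 from 1.8, 0.8 and 0.28 to 25.9 and 14.3 TPM (3.44 ± 0.55), with Cdkn1c and Igf2r (38.2, 30.3 and 30.2 to 53.1 and 57.1 TPM) the other 2 of the 4 rises. Mest (-0.92), Snrpn (-0.8) and the noncoding Rian (-0.63) were among the 7 that fell. The falls numbered 3 without vehicle 1 or vehicle 3 and 0 without panobinostat 3 in limma (7 higher and 3 lower at an unadjusted p under 0.05). H19 and Igf2 are also expressed by muscle and stroma, and fibroblast markers summed to 298 to 492 TPM in vehicle and 3113 to 3606 TPM after panobinostat and muscle markers to 15070 TPM in panobinostat 3. The part of these tissues was not tested. Mest and Snrpn did not pass without panobinostat 3 (limma adjusted p = 0.072 to 0.0751), and Rian without vehicle 1, vehicle 2, vehicle 3 or panobinostat 3, with a pseudocount of 5, with no filter, after quantile normalization, rescaled without histone and small RNA genes, rescaled without skeletal muscle list and with no trend (limma adjusted p = 0.0504 to 0.302).

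**Figure D4:**
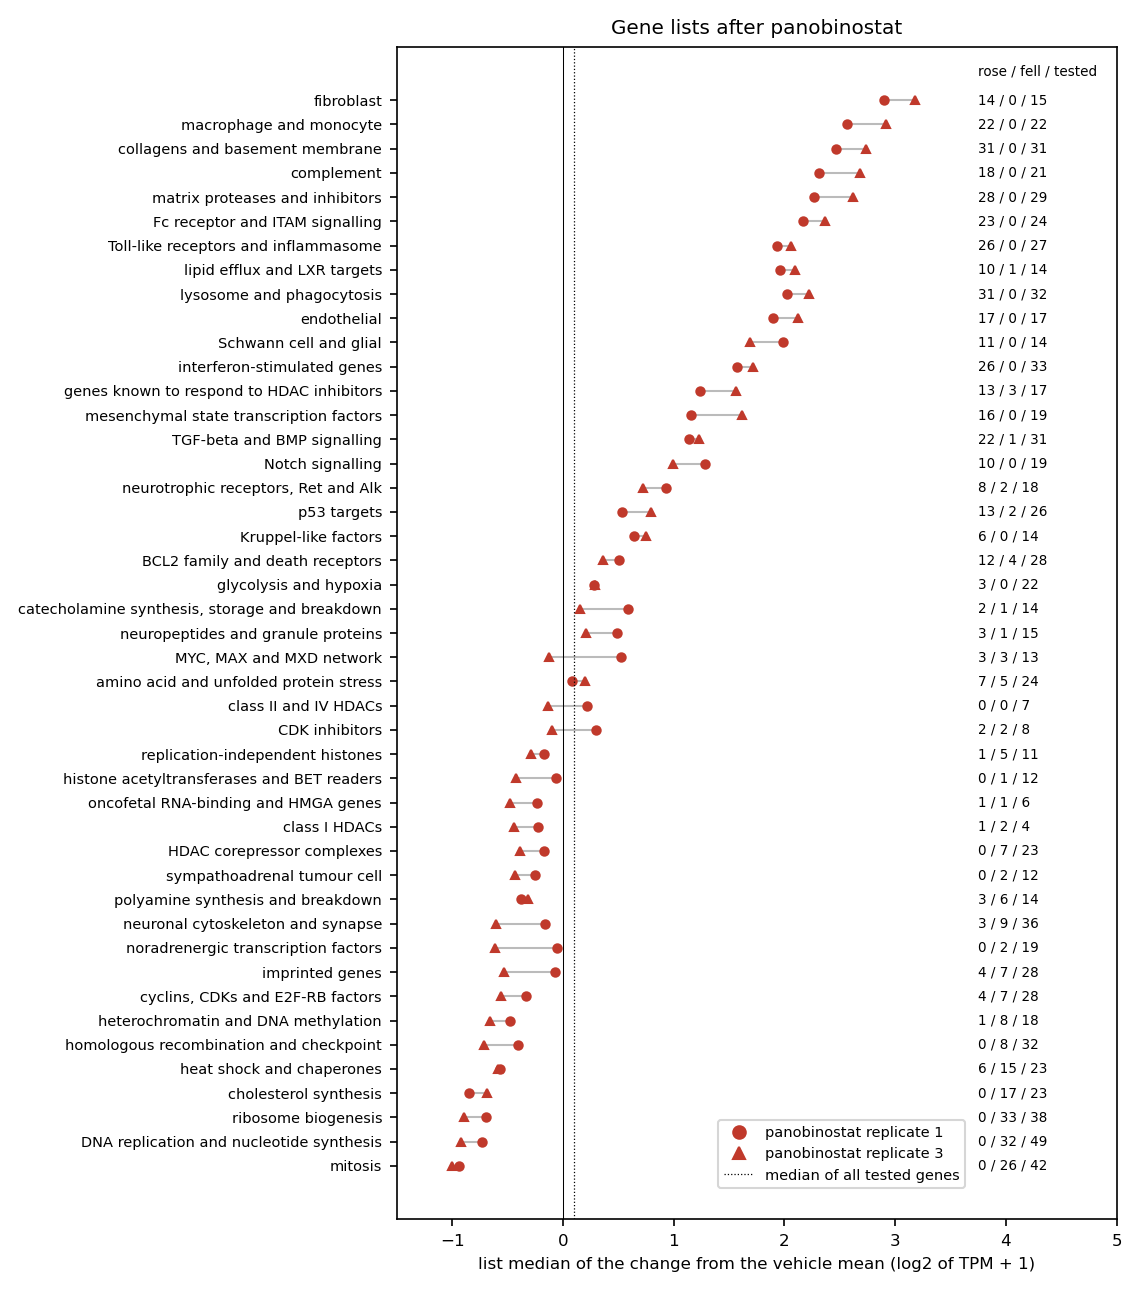
Median change of the gene lists named on the y axis from the vehicle mean (x axis, log2 of TPM + 1) in panobinostat replicate 1 (circle) and replicate 3 (triangle), ordered by the median of the limma change, with the counts that rose, fell and were tested at the right. The 2 libraries give medians of one sign in most lists, from 2.90 and 3.18 for fibroblast markers to -0.94 and -1.004 for mitosis, and medians of opposite sign for class II and IV HDACs, the MYC network and CDK inhibitors. The skeletal muscle list, with medians of -0.29 and 7.17, is not plotted.

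Interferon-stimulated genes rose after panobinostat but stayed far below their level after CBL0137. Of 33 genes 26 rose against vehicle (78.8%, against 25.5% of all tested genes), with a median of 1.71. Lower than after CBL0137 were 32, against 6.81% of all tested genes, with a median difference of -2.44. Ifitm3, which blocks viral entry, went from 28.7, 15.04 and 23.4 to 189 and 292 TPM, and the nucleic acid sensor Zbp1 from 0.76, 0.58 and 1.09 to 8.86 and 10.4 TPM. Bst2 and Oas1a, further antiviral genes, rose by 2.77 and 2.42. The summed list reached 108 to 121 TPM in vehicle, 495 to 635 TPM after panobinostat and 1808 to 4850 TPM after CBL0137. Usp18, which dampens interferon receptor signalling, had 0.49, 0.56 and 0.28 TPM in vehicle, 3.13 and 3.62 TPM after panobinostat and 99.5, 93.1 and 232 TPM after CBL0137, a log2 difference of -4.9, and Ifit1, Ifit3, Ifit1bl1 and Cxcl10 differed by -4.2, -4.2, -4.57 and -4.52. The count of rises against vehicle in this list was 15 without panobinostat 3, 15 with a pseudocount of 5 and 15 after quantile normalization. Ifit1 and Usp18 did not pass without panobinostat 3, with a pseudocount of 5 and after quantile normalization (limma adjusted p = 0.0652 to 0.23), and Ifit3 with a pseudocount of 5 (limma adjusted p = 0.0544).

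The comparison with CBL0137 sets the 2 single drugs side by side. It called 1879 genes higher after panobinostat (12.1%) and 1056 lower (6.81%), and genes of stroma and myeloid cells stood among the largest differences. Ccr2 had 7.83, 10.2 and 12.9 TPM after CBL0137 and 79.8 and 98.02 TPM after panobinostat, a log2 difference of 3.01 (adjusted p = 0.00476), and the fractalkine receptor Cx3cr1 1.96, 2.07 and 2.84 TPM after CBL0137 and 25.2 and 23.3 TPM after panobinostat (2.95, adjusted p = 0.00466). Sostdc1, a secreted antagonist of BMP and Wnt, had 0.4, 0.59 and 1.73 TPM after CBL0137 and 19.9 and 13.1 TPM after panobinostat (3.23), and the transporter Abca8a differed by 2.94. Cox7a1, a muscle cytochrome oxidase subunit, had 6.81, 48.7 and 26.8 TPM after CBL0137 and 71.6 and 503 TPM after panobinostat, so it was highest in the library with muscle transcripts. Of 31 collagen genes 29 were higher after panobinostat (median difference 1.78), of 15 fibroblast markers 14 (1.96) and of 32 lysosome genes 18. Between the drugs 0 of 42 mitotic genes passed limma's threshold (0 higher and 1 lower at an unadjusted p under 0.05) and 9 of 49 replication genes were lower. Of the neuronal genes Stmn3 was lower, at 82.8 and 70.8 against 222, 238 and 194 TPM (-1.49, adjusted p = 0.00468). The calls depend on the pooled spread and on single libraries. When only these 5 libraries were fitted, or panobinostat 3 was left out, limma called 0 genes each way, with 3150 and 2792 higher and 2025 and 1257 lower at an unadjusted p under 0.05, without panobinostat 1 they numbered 926 and 381, and without CBL0137 1 or 2 they numbered 329 or 448 higher and 210 or 275 lower. The median differences held their sign without panobinostat 3, at -2.53 for interferon-stimulated genes and 1.54 for collagens. Without CBL0137 3 the calls numbered 2718 and 1299.

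**Figure D5:**
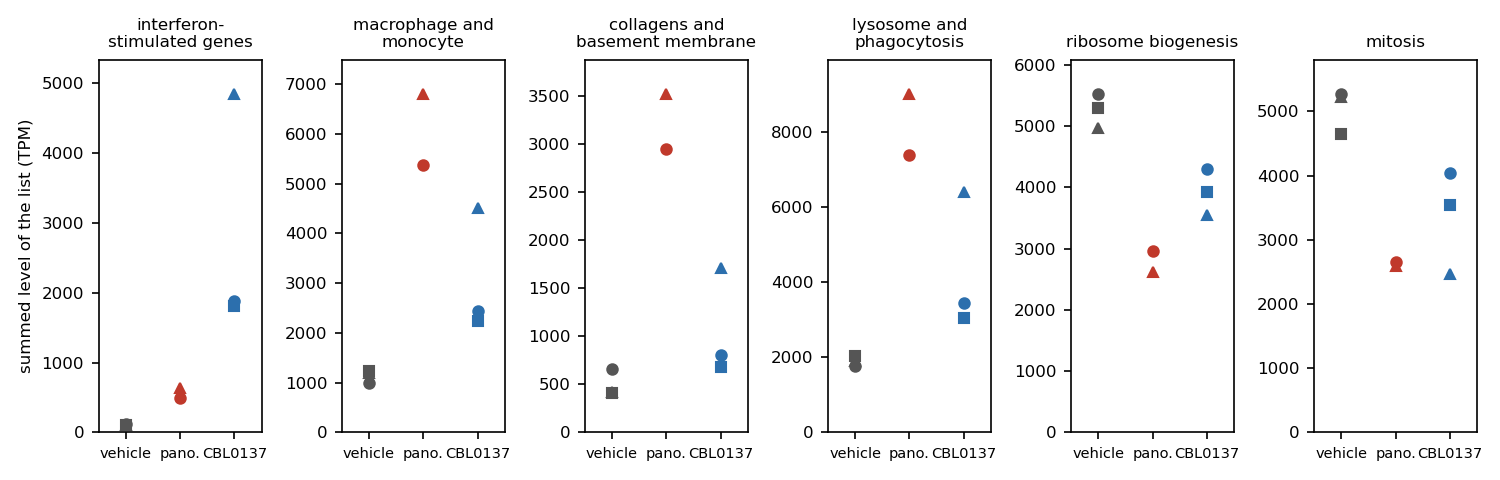
Summed TPM (y axis, from 0) of 6 gene lists in the vehicle, panobinostat (pano.) and CBL0137 libraries, 1 point per tumour. Interferon-stimulated genes are highest after CBL0137 (1808 to 4850 TPM), macrophage, collagen and lysosome genes are highest after panobinostat, and ribosome biogenesis and mitosis genes are lower than vehicle after both drugs, with mitosis overlapping between the drugs.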

How the data were processed

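Total RNA of whole tumours was sequenced after removal of ribosomal RNA with a strand-specific kit, per the labels' protocols. The authors deposited 1 TPM value per gene and library, and the submitters' processing notes name STAR, SAMtools, RSEM and mm10, with versions not given in the sources used here. TPM values are shares of a library, and read depth is unknown. Gene names were used as deposited, except that 27 symbols turned into dates were replaced by way of their transcripts. Promoter and miRNA sequences came from RefSeq (GRCm38.p6).

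From these values, log2(TPM + 1) was fitted with limma 3.58.1 in R 4.3.3, as 1 model with 4 group means over 11 libraries (7 residual degrees of freedom, variance trend, 2-sided tests, Benjamini-Hochberg adjustment over all tested genes, threshold 0.05). The fit was checked on simulated data. Shares of RNA classes were compared by 2-sided exact permutation tests. Where 1 panobinostat library was left out, the other was assumed to vary like the remaining groups. Genes were named by rule: the 15 largest rises and 15 largest falls without overlap between groups and at 5 TPM or more on average where higher, leaving out histone, small RNA, muscle list and unnamed genes, the 5 largest each way against CBL0137, a fixed panel, the best members of each list, and members needed to describe a role. Lists and named genes were chosen with earlier results of these data known. Alternatives covered pseudocounts, filters, scaling (TMM, quantile, rescaling), a replicate block, weights, the libraries fitted and leaving out each library.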

Additional observations from a re-analysis of the deposited data

How the results depend on the processing

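Quantile normalization moved the median change of all tested genes from 0.10 to -0.18, the rises against vehicle to 2451 and the falls to 3960. Leaving out 1 library gave 2727 to 3605 rises and 1304 to 2239 falls, lowest without panobinostat 3 for both. Against CBL0137, the higher genes numbered 1174 under quantile normalization and 2891 with array weights, and the lower genes 1703 with array weights. They numbered 0 and 0 when only the groups compared were fitted, and leave-one-out ranges were 0 to 2718 and 0 to 1299. No cause was tested. With the replicate number as a block, the vehicle comparison called 3479 rises and 2328 falls and the CBL0137 comparison 835 and 414. That block cost 9 named genes their call: Hdac3, Hdac8, Hspa1a, Kat8, Mcl1, Myc, Rian, Scg5 and Vgf. The lists of lost calls above leave this setting out. The labels do not say whether libraries of the same number share a litter, day or batch. The correlation of deviations from the group mean was -0.144 for vehicle 1 and panobinostat 1 and -0.213 for vehicle 3 and panobinostat 3. For CBL0137 1 and panobinostat 1 it was 0.19, and for CBL0137 3 and panobinostat 3 -0.0416. These values cannot decide whether the numbers pair the libraries, since the deviations of the panobinostat libraries mirror each other.

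Some signs turned. Under quantile normalization they were those of Bcl2 (-0.45), Bcl2l11 (-0.10), Hdac8 (-0.17), Mycn (-0.023), and the medians of the class II and IV HDACs (-0.17), the MYC network (-0.31) and the p53 targets (-0.010). TMM factors turned the class II and IV HDAC median (-0.0050) and a pseudocount of 5 that of the CDK inhibitors (0.012). Leaving out 1 library gave Hand2 -0.52 to 0.13, Th -0.14 to 0.69, skeletal muscle -0.29 to 7.17, class II and IV HDACs -0.13 to 0.22, the MYC network -0.13 to 0.52, CDK inhibitors -0.20 to 0.30 and the share of microRNA genes -0.000844 to 0.0187 percentage points. Of 192 named genes called against vehicle, 191 kept their direction under all alternatives run and 133 also their call. Array weights, trend, filters and pseudocounts kept the vehicle counts within 1.5 times. Without read counts the precision of low genes cannot be given.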
